A study of Homo sapiens with 18 samples.

Results

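The genes described here were 59 factors that build ribosomes in the nucleolus, given as a list of symbols that was drawn up with earlier results of these data known and then looked up in the expression table. All 59 symbols were found among the 23399 genes of the table, and all 59 had a mean expression high enough to be tested beside the other genes. The cells were U2OS-MycER, a human osteosarcoma line transduced with a retrovirus encoding Myc fused to the hormone-binding part of the estrogen receptor. The fusion protein, MycER, is held inactive until 4-hydroxytamoxifen (OHT) is added. In 18 libraries of rRNA-depleted RNA, cells had been transfected with siRAD21, a pool of siRNAs against the cohesin subunit RAD21, or with siCtrl, an siRNA against Renilla luciferase, and had been given 400 nM OHT or ethanol at the time of transfection. RNA was taken after 24 or 48 h, which gave 8 groups. The groups without OHT were siCtrl 24 h (n = 2), siCtrl 48 h (n = 3), siRAD21 24 h (n = 2) and siRAD21 48 h (n = 2). The groups with OHT were siCtrl OHT 24 h (n = 2), siCtrl OHT 48 h (n = 3), siRAD21 OHT 24 h (n = 2) and siRAD21 OHT 48 h (2 libraries, counted as 1 sample). Every group, controls included, carried the MycER construct, so an effect of OHT itself cannot be told apart from that of MycER activation. Whether the line was a clone or a pool is not given in the sources used here.

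Ribosomes are assembled in the nucleolus, where a long precursor rRNA is transcribed, chemically modified, folded and cut while proteins join it. Small nucleolar ribonucleoproteins (snoRNPs) of the box C/D kind guide methylation of the rRNA and those of the box H/ACA kind guide pseudouridylation. A large complex called the small subunit (SSU) processome folds and cuts the precursor of the 40S subunit, and separate factors mature the pre-40S and pre-60S particles before export. Myc is well known as an activator of this set of genes, and its heterodimer with Max binds a DNA element called the E-box, whose preferred form is CACGTG. By their roles the 59 genes were sorted into box C/D snoRNP proteins (3), box H/ACA snoRNP proteins (4), abundant nucleolar proteins and chaperones (5), SSU processome (19), late pre-40S factors (6), pre-60S factors (20) and other RNA enzymes (2).

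Promoter sequence was examined first, since the E-box is the element through which Myc is known to bind DNA. RefSeq promoter windows of 300 bases (assembly GRCh38.p14), from 250 bases before to 50 bases after an annotated start, were available for 49 of the 59 genes, with 58 windows in all. CACGTG, which reads the same on both strands, was present in a window of 23 of these 49 genes (46.9%). The same letters were found in 1288 of 10435 tested genes with a window (12.3%) and in 1635 of all 15227 genes of the table with one (10.7%). A variant of the element, CACGCG or its reverse complement CGCGTG, was found in 14 of the 49 genes (28.6%) and in 22.1% of tested genes, so that its share stood closer to the background than that of CACGTG. Copies of the motifs that overlapped each other were all counted. The 49 genes held 26 copies of CACGTG, and 22 of them began within 50 bases of the start. The distance to the start was not counted for copies in other genes, so nothing particular to the set is read from it. The windows of IMP4 and NOP10 held 2 copies each, and these are printed below with those of DDX21 and GNL3, the most highly expressed genes among those with 1 copy. Each sequence runs 5′ to 3′ along the strand of the gene, from 250 bases before to 30 bases after the start, with CACGTG in capitals. IMP4 is at chr2:130342647-130342926 on the plus strand, NOP10 at chr15:34343107-34343386 on the minus strand, DDX21 at chr10:68956397-68956676 on the plus strand and GNL3 at chr3:52685782-52686061 on the plus strand, all in GRCh38.
IMP4: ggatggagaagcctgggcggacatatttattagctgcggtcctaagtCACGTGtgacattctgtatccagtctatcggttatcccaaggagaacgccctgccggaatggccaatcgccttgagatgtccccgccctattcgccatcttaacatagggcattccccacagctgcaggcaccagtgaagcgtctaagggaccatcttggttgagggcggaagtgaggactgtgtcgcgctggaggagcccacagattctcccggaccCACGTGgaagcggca
NOP10: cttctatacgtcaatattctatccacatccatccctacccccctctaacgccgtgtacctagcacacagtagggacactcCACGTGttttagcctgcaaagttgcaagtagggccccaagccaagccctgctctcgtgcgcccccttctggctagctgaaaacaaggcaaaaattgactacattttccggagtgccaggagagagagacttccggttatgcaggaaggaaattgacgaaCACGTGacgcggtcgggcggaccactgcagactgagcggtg
DDX21: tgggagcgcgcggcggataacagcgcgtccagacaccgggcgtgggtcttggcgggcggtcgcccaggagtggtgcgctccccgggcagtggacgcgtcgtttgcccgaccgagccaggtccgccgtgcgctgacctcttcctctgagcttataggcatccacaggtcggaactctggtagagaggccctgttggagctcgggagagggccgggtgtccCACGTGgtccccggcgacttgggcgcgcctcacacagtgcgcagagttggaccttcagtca
GNL3: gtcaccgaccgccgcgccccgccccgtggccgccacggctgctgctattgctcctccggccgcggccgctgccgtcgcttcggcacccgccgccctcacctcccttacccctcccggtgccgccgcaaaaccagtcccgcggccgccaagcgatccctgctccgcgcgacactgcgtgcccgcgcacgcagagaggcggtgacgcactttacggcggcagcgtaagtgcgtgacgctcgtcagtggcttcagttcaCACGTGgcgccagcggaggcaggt
In IMP4 the copies began 203 bases before the start and at position 16 after it, and in NOP10 they began 170 and 11 bases before it. The single copy of DDX21 began 31 bases before the start and that of GNL3 at position 7 after it. These are matches of letters, and binding was not measured in these libraries. The study took promoter binding of Myc from ChIP-seq in U2OS cells, and those data were not used here. The fold changes of genes with and without the motif lay over the same range. At 48 h the median log2 fold change with OHT in siCtrl cells was 0.54 for the 23 genes with CACGTG (range 0.10 to 0.86) and 0.51 for the 26 without it (range 0.13 to 0.91). NOP10, with 2 copies, had the smallest fold change of the 59 genes.

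Expression was given as eRPKM, reads on exons scaled to exon length and to the read total of the library, so that levels can be set side by side between genes. Read totals recovered from the values were between 9647501 and 12678599 per library, and the 59 genes had between 52 reads (PPAN) and 4611 reads (DDX21) in a library. The authors had removed PCR duplicates, in a way that the sources used here do not detail. If at most 1 read per start position and strand was kept, or 2 reads per exon base, no gene could exceed 158 to 207 eRPKM, and the highest value of any gene was 138 to 174 eRPKM. On this assumption, drawn from the values, 13 of the 59 genes had at least 40% of these positions filled in 1 library or more, with the highest share, 65.1%, in IMP4. The libraries of siRAD21 OHT 48 h differed from each other by no more than sampling noise and were counted as 1 sample, whose mean is given without an SD. In a chi-square per gene, which is near 1 for sampling noise alone, this pair was at 0.98. The siRAD21 24 h pair came close to it at 1.05, and was kept as n = 2. All other pairs within a group were at 1.59 to 3.95. The fit held the siRAD21 OHT 48 h libraries as 2, which makes its SE for this group smaller. All groups shared the estimate of the spread, so averaging these libraries into 1 also moved some counts in contrasts without this group. Both values are given for some of the results that change, and not for all of them. RAD21 itself was at 93.3, 96.9 and 89.02 eRPKM in siCtrl 48 h and at 11.2 and 11.3 eRPKM in siRAD21 48 h, and its log2 fold change was -1.92 ± 0.05 at 24 h and -2.99 ± 0.05 at 48 h. MYC, whose endogenous and MycER transcripts were not told apart here, was at 54.6, 49.9 and 52.3 eRPKM in siCtrl 48 h, 57.5 and 56.4 in siRAD21 48 h, 49.4, 43.3 and 41.95 in siCtrl OHT 48 h and 35.97 and 32.9 in siRAD21 OHT 48 h. The log2 fold change of MYC at 48 h was 0.12 ± 0.06 with siRAD21 alone (limma, adjusted p = 0.109), -0.22 ± 0.06 with OHT in siCtrl cells and -0.72 ± 0.07 with OHT in siRAD21 cells. At 24 h it was -0.25 ± 0.07 with siRAD21 alone (limma, adjusted p = 0.0146), -0.37 ± 0.07 with OHT in siCtrl cells and -0.57 ± 0.07 with OHT in siRAD21 cells. The paper reports that RAD21 silencing lowered Myc in both mRNA and protein. Of the osteoblast lineage markers, SPARC (60.6 to 86.4 eRPKM) and COL1A1 (14.5 to 65.8) were well expressed, while COL1A2 did not exceed 0.109 eRPKM and SP7 did not exceed 0.487. CD3E and ALB, markers of other lineages, did not exceed 0.0817 eRPKM, and the epithelial marker EPCAM was at 2.56 to 12.9.

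The levels of the 59 genes covered a wide range. Mean eRPKM over all libraries ran from 4.55 (PPAN) to 100.5 (IMP4), with a median of 38.2. Among the most abundant were IMP4, a component of the SSU processome, NOP56, a core protein of box C/D snoRNPs, and NPM1, nucleophosmin, a histone and ribosomal protein chaperone. Over the 18 libraries the highest value of a gene stood between 1.30 times (NOP10) and 3.71 times (LYAR) its lowest. Summed over the 59 genes, eRPKM lay between 2122 and 2253 in siCtrl 48 h, between 2918 and 3104 in siCtrl OHT 48 h, between 1906 and 1965 in siRAD21 48 h and between 2950 and 3001 in siRAD21 OHT 48 h. Both OHT groups stood above both groups without OHT at this time, and siRAD21 alone stood below siCtrl.

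**Figure D1:**
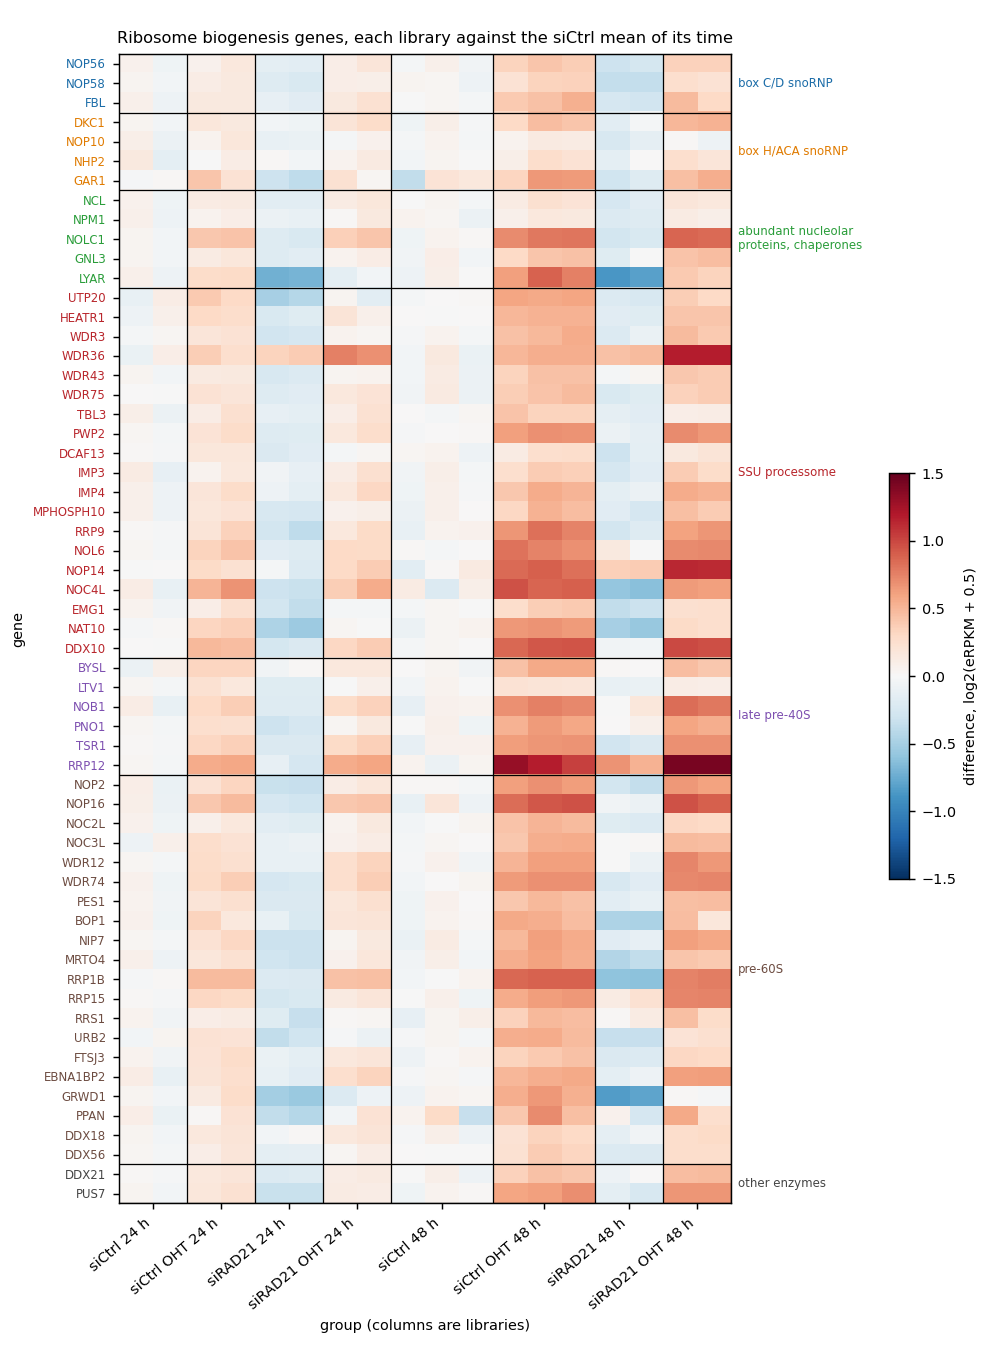
Heat map of the 59 genes (rows, sorted and coloured by role) in the 18 libraries (columns, grouped by condition), as the difference in log2(eRPKM + 0.5) from the mean of the siCtrl libraries of the same time. OHT columns are red in nearly every row, most at 48 h, and siRAD21 columns without OHT are mostly blue, with WDR36, NOP14 and RRP12 as red rows at 48 h.

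The first comparison asked how MycER activation changed these genes in cells with RAD21. At 48 h the whole set stood higher with OHT. The median log2 fold change of the 59 genes was 0.52, a ratio of 1.44, with quartiles of 0.39 and 0.65 and a range of 0.10 (NOP10) to 1.17 (RRP12), while the median of the 14993 genes tested was -0.01. At an adjusted p under 0.05 in limma, 58 of the 59 genes rose, against 26.1% of all genes tested, and NOP10 did not pass. With a further demand for a log2 fold change over 0.5, 32 rose and 0 fell, against 7.78% and 10.1% of all genes. The 3 OHT libraries stood above the 3 siCtrl libraries in all 59 genes, as they did in 27.3% of all genes. In bulk RNA, a change in the number of cells of a kind and in RNA per cell cannot be told apart. Depth and exon length were recovered from the table, and limma on the recovered reads gave 34 genes in place of 32.

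Box C/D snoRNP proteins rose by a modest amount. FBL, fibrillarin, the methyltransferase of these particles, was at 25.9, 26.5 and 25.5 eRPKM in siCtrl 48 h and 34.3, 35.3 and 37.7 in siCtrl OHT 48 h (log2 fold change 0.45 ± 0.05, SE, adjusted p = 6.98e-06). NOP56, a scaffold protein of the particle, was at 78.6, 84.5 and 77.1 and then 101, 107.3 and 104 eRPKM (0.37 ± 0.05). NOP58, its partner scaffold, changed least of the 3 (0.30 ± 0.04), from 53.8, 53.5 and 49.6 to 60.9, 66.2 and 66.8 eRPKM. No library of one group reached into the other in these genes, and none of them passed a log2 fold change of 0.5.

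Among the box H/ACA proteins the response was uneven. GAR1, a subunit needed for pseudouridylation, was the lowest in level and the most variable, at 8.43, 12.8 and 12.4 eRPKM in siCtrl and 13.9, 17.6 and 17.4 with OHT (log2 fold change 0.54 ± 0.13, adjusted p = 0.00312). NHP2, which binds the RNA of the particle, went from 72.7, 76.97 and 74.4 to 79.6, 89.7 and 87.1 eRPKM (0.19 ± 0.07, adjusted p = 0.0301). Of its annotated exon bases, 28.0% are shared with RMND5B. NOP10, a small structural subunit, was at 74.1, 77.9 and 73.99 and 78.3, 82.5 and 82.1 eRPKM, a difference that did not pass (0.10 ± 0.05, adjusted p = 0.114). Both NHP2 and NOP10 had over 40% of the positions of their exons filled, and the level of GAR1 in 1 of the siCtrl libraries stood well below the other 2.

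The 5 abundant nucleolar proteins and chaperones ranged from small to large fold changes. NPM1 went from 96.7, 95.3 and 87.3 to 98.3, 104 and 103 eRPKM (0.13 ± 0.05, adjusted p = 0.041), and NCL, nucleolin, an RNA-binding protein of the nucleolus, from 96.2, 99.5 and 95.3 to 106, 114 and 112 (0.19 ± 0.04). For both, the gap between the groups was smaller than the range within the OHT group. GNL3, nucleostemin, a GTP-binding protein named here after its values were seen, lay between, from 55.9, 62.03 and 56.4 to 71.6, 77.8 and 79.1 eRPKM (0.39 ± 0.05). NOLC1, a chaperone that binds snoRNPs, rose from 43.8, 47.6 and 46.6 to 75.7, 79.8 and 80.6 eRPKM (0.77 ± 0.04, adjusted p = 3.28e-09). LYAR, a nucleolar zinc finger protein, rose from 19.7, 21.97 and 20.6 to 32.1, 38.9 and 35.3 eRPKM (0.75 ± 0.06). With duplicate removal undone by calculation on the assumption above, the median log2 fold change of the 13 genes with the fullest exons moved from 0.39 to 0.47 and that of all 59 from 0.52 to 0.55.

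All 19 SSU processome genes rose at an adjusted p under 0.05, and 10 of them by more than 0.5 (median 0.52). DDX10, an RNA helicase, showed the largest fold change of the group, from 11.8, 12.3 and 12.1 to 22.4, 23.5 and 23.7 eRPKM (0.91 ± 0.04, adjusted p = 5.49e-10). NOC4L, a partner of NOP14 in the processome, was close behind, from 28.1, 22.4 and 27.4 to 50.6, 47.8 and 48.5 eRPKM (0.91 ± 0.08). NAT10, the acetyltransferase that modifies cytidines of the small subunit rRNA, went from 23.7, 25.8 and 26.2 to 39.7, 40.6 and 39.4 eRPKM (0.65 ± 0.04). The groups were far apart in these genes. IMP4 and IMP3, which bind the U3 snoRNA complex with MPHOSPH10, moved less. IMP4 went from 80.8, 88.8 and 83.4 to 112, 124 and 119.8 eRPKM (0.49 ± 0.06), with the fullest exons of the set. IMP3 went from 59.6, 65.6 and 60.3 to 73.7, 80.8 and 79.2 eRPKM (0.33 ± 0.06). Of the annotated exon bases of IMP3, 31.7% are shared with SNX33. DCAF13 stood at the low end, with 33.3, 33.8 and 30.9 and 35.6, 39.1 and 39.3 eRPKM (0.21 ± 0.05, adjusted p = 0.00252).

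Late pre-40S factors held both the largest fold change of the set and one of the smallest. RRP12, a large protein needed for export of pre-ribosomal particles, rose from 12.8, 11.6 and 12.7 to 31.3, 28.6 and 25.7 eRPKM (1.17 ± 0.07, adjusted p = 7.01e-09). NOB1, the endonuclease that makes the last cut of 18S rRNA, rose from 30.6, 34.9 and 34.7 to 53.8, 56.8 and 55.1 eRPKM (0.72 ± 0.06), and PNO1, its binding partner, from 40.4, 42.7 and 38.8 to 58.5, 63.4 and 60.7 (0.58 ± 0.05). These values did not overlap between groups. LTV1, an export and assembly factor, went from 15.6, 16.6 and 16.1 to 18.8, 18.5 and 18.3 eRPKM (0.20 ± 0.04, adjusted p = 0.000642).

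All 20 pre-60S factors rose at an adjusted p under 0.05, 13 of them by more than 0.5 (median 0.53). NOP16 had the largest value, from 23.8, 29.2 and 24.3 to 46.4, 49.5 and 50.01 eRPKM (0.91 ± 0.07, adjusted p = 9.57e-08), and RRP1B, a nucleolar factor of early pre-60S particles, followed, from 26.5, 27.3 and 28.4 to 50.3, 50.8 and 50.9 (0.88 ± 0.03). MRTO4, which occupies the site of the later ribosomal stalk, went from 50.1, 54.9 and 50.5 to 75.8, 79.03 and 75.5 eRPKM (0.56 ± 0.05). GRWD1, a chaperone of a large subunit protein, went from 20.9, 22.8 and 22.5 to 32.3, 34.9 and 32.1 eRPKM (0.57 ± 0.05). Here too the libraries of the groups were apart. DDX18, a helicase, changed least, from 56.4, 60.3 and 54.1 to 66.3, 71.97 and 70.2 eRPKM (0.29 ± 0.04). Of the other RNA enzymes, the helicase DDX21 went from 66.8, 71.03 and 63.4 to 85.3, 90.96 and 88.99 eRPKM (0.40 ± 0.04) and the pseudouridine synthase PUS7 from 24.9, 26.9 and 26.3 to 39.3, 40.2 and 42.5 (0.63 ± 0.04).

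**Figure D2:**
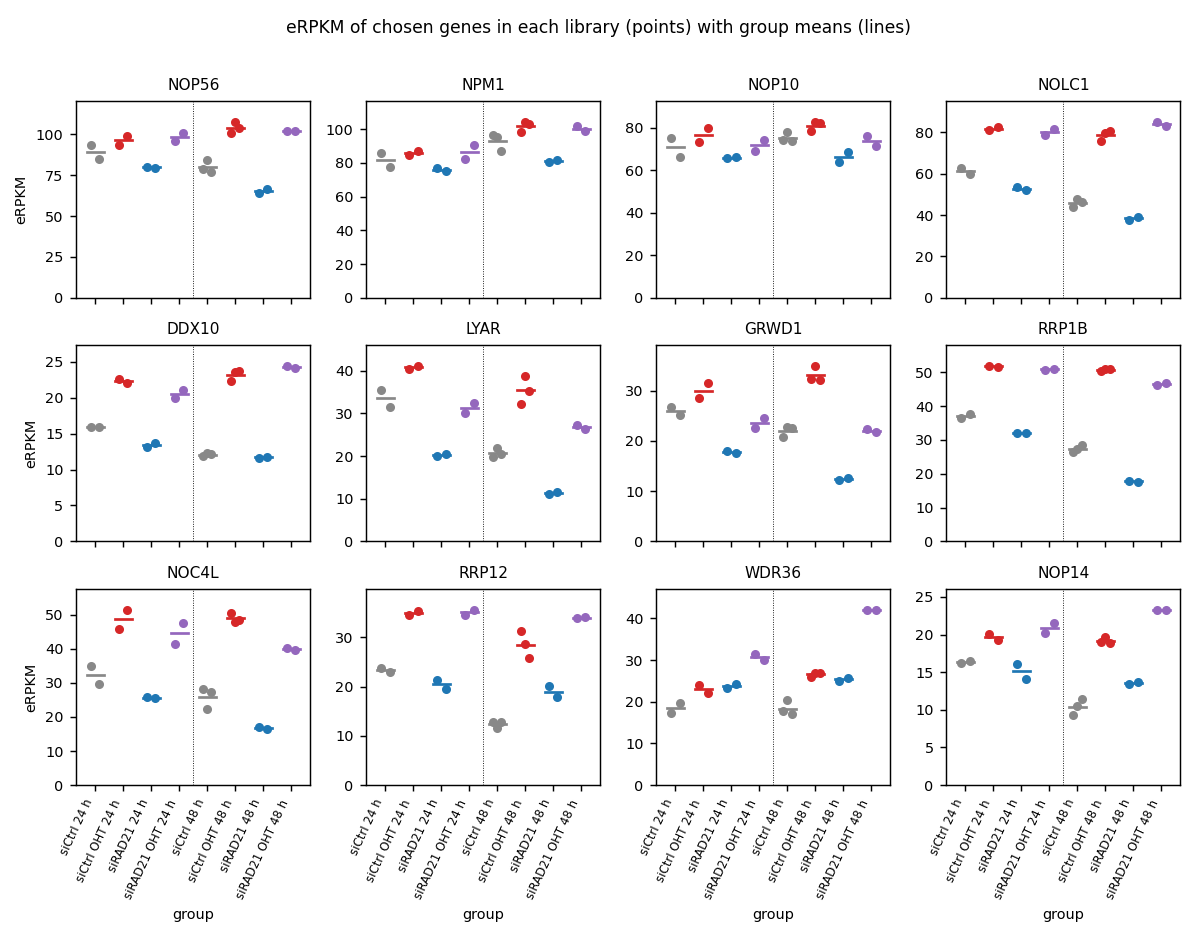
eRPKM (vertical axis, from 0) of chosen genes in each library (points) of the 8 groups (horizontal axis), with group means as lines. The gap between OHT and no OHT is wide in NOLC1, DDX10 and RRP1B and narrow in NPM1 and NOP10, and LYAR and GRWD1 are lower in siRAD21 cells than in siCtrl cells with and without OHT.

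The response was smaller at 24 h. All 59 estimates were above 0 with a median log2 fold change of 0.22, and 41 passed an adjusted p of 0.05, against 12.5% of all genes. Only NOC4L (0.59 ± 0.10) and RRP12 (0.57 ± 0.08) exceeded 0.5, where 3.68% of all genes did. In 54 of the 59 genes both OHT libraries stood above both siCtrl libraries, as in 28.6% of all genes. None of the 7 snoRNP proteins passed at this time. The change in response from 24 h to 48 h, tested in siCtrl cells, passed an adjusted p of 0.05 in 24 genes, all with the larger response at 48 h, against 2.21% of all genes. It exceeded 0.5, as it did upward in 0.714% of all genes, for RRP12 and for NOP14, an SSU processome protein that the rule for naming genes did not pick and whose exons share 20.7% of their bases with its antisense gene NOP14-AS1. Without siCtrl 24 h replicate 2 the count past 0.5 was 4, and without siCtrl 48 h replicate 2 or siCtrl OHT 48 h replicate 1 it was 5. Over the 59 genes, the 24 h and 48 h responses, which share no library, had a Pearson correlation of 0.86 and a Spearman correlation of 0.85, and over all 14993 genes these were 0.72 and 0.75. Genes are not independent replicates, and exon length and level are common to both times.

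The 24 h libraries were deeper (10941845 to 12678599 reads) than the 48 h libraries (9647501 to 10912005 reads), and the assumed ceiling on eRPKM was lower in them (158 to 183 against 183 to 207). Without OHT, 37 of the 59 genes were lower in siCtrl 48 h than in siCtrl 24 h at an adjusted p under 0.05, against 27.2% of all genes, and 3 were higher (BYSL, NCL and NPM1), against 18%. With every library centred on its median, the median log2 difference of the 59 genes was -0.14 in place of -0.23, and genes higher at 48 h made up 63.4% in place of 44.5% of all genes past both thresholds. The share of culture time and of depth in these differences cannot be told apart. RRP12 was at 23.8 and 22.98 eRPKM in siCtrl 24 h and 12.8, 11.6 and 12.7 in siCtrl 48 h, and LYAR at 35.4 and 31.6 and 19.7, 21.97 and 20.6. With OHT the values at the 2 times were closer, at 34.6 and 35.3 and 31.3, 28.6 and 25.7 eRPKM for RRP12.

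The second comparison asked what MycER activation did in cells silenced for RAD21. At 48 h all 59 genes rose at an adjusted p under 0.05, against 30.5% of all genes, and 45 of them by more than 0.5, against 12.4%. Quantile normalization lowered this count to 29, and with the siRAD21 OHT 48 h libraries averaged 57 genes rose, without NOP10 and PPAN, 44 of them by more than 0.5. Among all genes tested, those higher past both thresholds went from 1853 to 1951 with quantile normalization. The median log2 fold change of the 59 genes was 0.60 (range 0.16 for NOP10 to 1.37 for RRP1B), and that of all genes was -0.02. At 24 h the median was 0.36, 56 genes rose at an adjusted p under 0.05 (16.9% of all genes did) and 12 by more than 0.5 (4.29%). Of all genes past both thresholds at 24 h, 36% were higher, and 48.6% after quantile normalization. In all 59 genes the OHT libraries stood above the siRAD21 libraries at both times, as in 34.5% of all genes at 24 h and 40.7% at 48 h. The strongest rises at 48 h were those of RRP1B, from 17.9 and 17.7 to 46.3 and 46.9 eRPKM, NOC4L, from 17.1 and 16.5 to 40.4 and 39.8, LYAR, from 11.1 and 11.5 to 27.3 and 26.3, and NOLC1, from 37.8 and 39.02 to 84.9 and 83.04. The 3 box C/D proteins all exceeded 0.5 here, with FBL at 0.66 ± 0.06, NOP56 at 0.64 ± 0.06 and NOP58 at 0.60 ± 0.05.

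Whether the 2 responses differed was tested directly as the interaction of siRNA and OHT. At 48 h the estimate was above 0, a larger response in siRAD21 cells, for 47 of the 59 genes, with a median of 0.15 against 0.02 for all genes. It passed an adjusted p of 0.05 for 11 genes in this direction, against 10% of all genes, and for RRP12 in the other (-0.34 ± 0.10, adjusted p = 0.0355), against 7.25%. The largest were RRP1B (0.49 ± 0.05, adjusted p = 2.36e-05), LYAR (0.46 ± 0.10) and NOLC1 (0.35 ± 0.06), and NOP56, NOP58, PUS7 and MRTO4 were among the 11. With the siRAD21 OHT 48 h libraries averaged, 4 genes passed upward (LYAR, NOLC1, NOP58 and RRP1B), against 5.88% of all genes, and 0 downward, against 4.06%, and RRP12 no longer passed (adjusted p = 0.101). None exceeded 0.5 with the libraries kept apart, as 3.33% of all genes did upward and 3.97% downward. On recovered reads 1 gene did, and after quantile normalization 2. As a share, 18.6% of the 59 genes passed upward, beside 10% of all genes, and nothing particular to the set is read from it. At 24 h 0 of the 59 genes and 0% of all genes passed by limma, with the lowest adjusted p of the set at 0.426. At an unadjusted p under 0.05, 17 of the 59 passed at 24 h, all with the larger response in siRAD21 cells, where 2.29% of all genes passed in this direction, and on recovered reads the count past both thresholds was also 0. Across the 59 genes the responses in siCtrl and siRAD21 cells at 48 h, which share no library, had a Pearson correlation of 0.81 and a Spearman correlation of 0.83, and across all genes of 0.74 and 0.76.

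**Figure D3:**
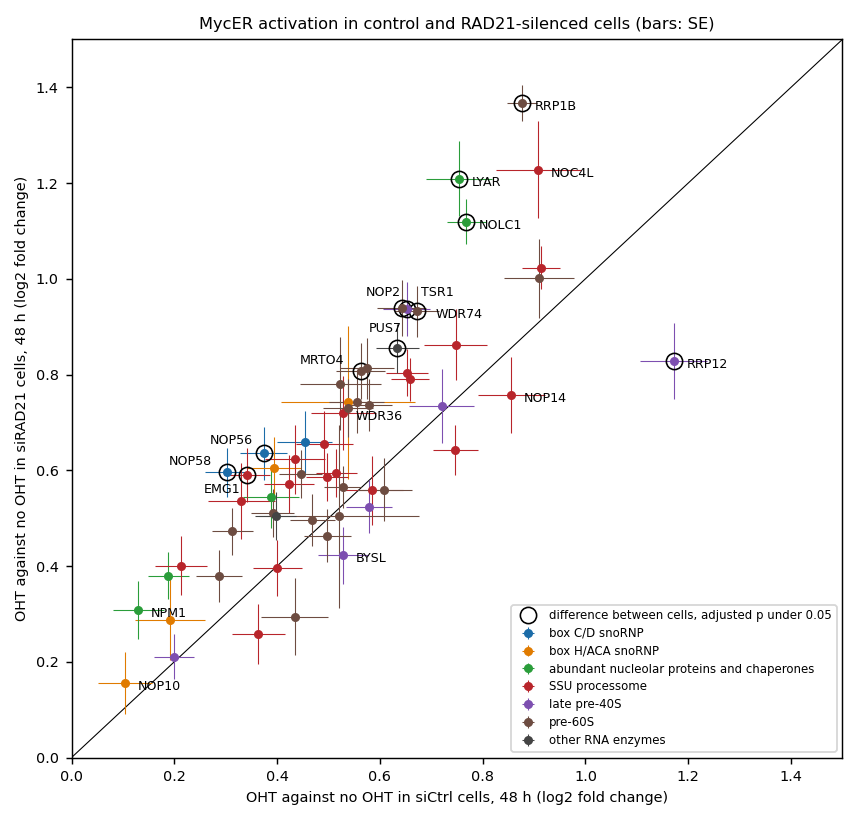
Log2 fold change with OHT at 48 h in siCtrl cells (horizontal axis) and in siRAD21 cells (vertical axis) for each of the 59 genes, coloured by role, with bars for the SE and a line of equal response. Circled genes passed the test of the difference with the siRAD21 OHT libraries kept apart, and 47 of 59 genes lie above the line, with RRP12 the circled gene below it.

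The third comparison asked what RAD21 silencing did without OHT. At 24 h 58 of the 59 estimates were below 0, with a median log2 fold change of -0.20 against 0.00 for all genes. At an adjusted p under 0.05, 36 genes fell, against 11.8% of all genes, and 1 rose (WDR36), against 14%. Those that fell by more than 0.5 were LYAR (-0.71 ± 0.08), GRWD1 (-0.53 ± 0.06) and NAT10 (-0.50 ± 0.05), 3 of 59, and 2.6% of all genes did so. Of all genes past both thresholds at 24 h, 69.1% were higher, and 55.5% after quantile normalization. At 48 h 49 estimates were below 0 with a median of -0.19, 34 genes fell at an adjusted p under 0.05 (30.5% of all genes) and 4 rose (27.2%). As shares of the 59 genes these were 61% lower at 24 h and 57.6% lower at 48 h, so that the distance from the background was greater at 24 h, when fewer genes of the transcriptome had moved.

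The 5 genes that fell by more than 0.5 at 48 h, where 11.2% of all genes did, were named in full. LYAR was at 19.7, 21.97 and 20.6 eRPKM in siCtrl and 11.1 and 11.5 in siRAD21 (-0.85 ± 0.07, adjusted p = 2.55e-07). GRWD1 was at 20.9, 22.8 and 22.5 and 12.1 and 12.5 eRPKM (-0.81 ± 0.06, adjusted p = 5.33e-08). RRP1B was at 26.5, 27.3 and 28.4 and 17.9 and 17.7 eRPKM (-0.61 ± 0.03). In these genes, picked for their fall, the siRAD21 libraries lay close together and below every siCtrl library. The share of all genes separated in this way was not counted for this contrast. NOC4L was at 28.1, 22.4 and 27.4 and 17.1 and 16.5 eRPKM (-0.60 ± 0.09), and 1 siCtrl library was lower than the other 2. NAT10 was at 23.7, 25.8 and 26.2 and 17.7 and 16.8 eRPKM (-0.53 ± 0.05). The 3 box C/D proteins fell together by smaller amounts, with -0.36 ± 0.05 for NOP58, -0.29 ± 0.05 for NOP56 and -0.27 ± 0.06 for FBL. Of the late pre-40S factors, none fell by more than 0.5, and NOB1 and PNO1 did not pass (0.08 ± 0.07 and 0.04 ± 0.05).

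A few genes rose in silenced cells. RRP12 was at 12.8, 11.6 and 12.7 eRPKM in siCtrl 48 h and 20.04 and 17.9 in siRAD21 48 h (0.60 ± 0.07, adjusted p = 8.99e-06), the only rise over 0.5 in the set, where 12.6% of all genes rose as much. At 24 h it had not passed (-0.19 ± 0.08, adjusted p = 0.104), and its siCtrl level was higher at that time. The other 3 that stood higher at an adjusted p under 0.05, chosen after their values were seen, were WDR36, NOP14 and RRP15. WDR36, a scaffold protein of the SSU processome, was at 17.7, 20.3 and 16.99 and 25.04 and 25.6 eRPKM (0.46 ± 0.07), and was already higher at 24 h (0.36 ± 0.08). NOP14 was at 9.27, 10.5 and 11.5 and 13.5 and 13.7 eRPKM (0.37 ± 0.07), and RRP15, a pre-60S factor, at 5.83, 6.196 and 5.58 and 6.45 and 6.97 (0.18 ± 0.06). The change from the 24 h to the 48 h effect passed an adjusted p of 0.05 upward in 7 genes (8.12% of all genes) and downward in 2, GRWD1 and RRP1B (13.5%). It exceeded 0.5 for RRP12 alone, where 3.85% of all genes did so upward. In the fit with the replicate number as a block NOP14 exceeded it too (0.51), which made 2 genes.

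**Figure D4:**
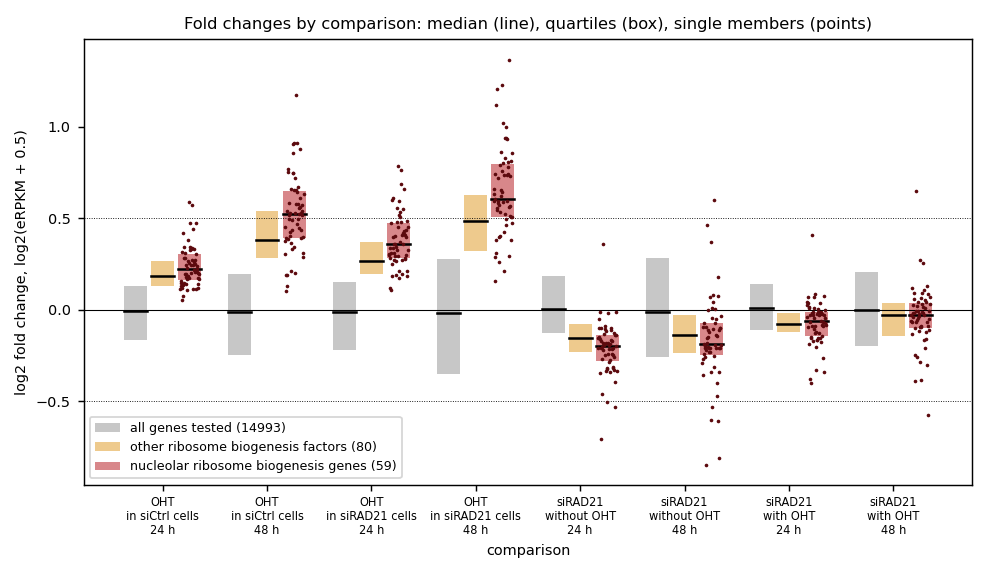
Log2 fold changes in 8 comparisons (horizontal axis) for all genes tested, other ribosome biogenesis factors and the 59 nucleolar genes, with the median as a line, the quartiles as a box and each of the 59 genes as a point. Dotted lines mark a log2 fold change of 0.5 in each direction. The 59 genes lie above 0 in all 4 OHT comparisons (medians 0.22, 0.52, 0.36 and 0.60) and mostly below 0 with siRAD21 alone (medians -0.20 and -0.19).

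The last comparisons set cells with both siRAD21 and OHT beside the others. Against siCtrl OHT 48 h, the median log2 fold change of siRAD21 OHT 48 h was -0.03, and 10 genes were lower and 3 higher at an adjusted p under 0.05, against 22.8% and 22.4% of all genes. Past 0.5 only GRWD1 was lower (-0.57 ± 0.06) and only WDR36 higher (0.65 ± 0.07), where 7.74% and 8.47% of all genes were. With the siRAD21 OHT 48 h libraries averaged, 6 were lower and 2 higher at an adjusted p under 0.05 (16.6% and 16.5% of all genes), and both GRWD1 and WDR36 still passed. GRWD1 was at 32.3, 34.9 and 32.1 eRPKM in siCtrl OHT 48 h and 22.3 and 21.8 in siRAD21 OHT 48 h, and WDR36 at 25.98, 26.9 and 26.97 and 42.1 and 42.1. At 24 h 9 were lower (9.44% of all genes) and 1 was higher (10.6%), and 0 exceeded 0.5 (2.73% and 3.74%).

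Against siCtrl 48 h, siRAD21 OHT 48 h stood higher in 54 of the 59 genes at an adjusted p under 0.05 (29.7% of all genes) and lower in 0 (30%). This contrast shares its control libraries with that of siRAD21 alone, so the values are given side by side and not correlated. Of the 34 genes that had fallen with siRAD21 alone, 30 were higher than siCtrl when OHT was present (29 with the libraries averaged), 0 were lower and 4 did not pass, namely GRWD1, NOP10, NPM1 and TBL3. For GRWD1 the values were 20.9, 22.8 and 22.5 eRPKM in siCtrl 48 h, 12.1 and 12.5 in siRAD21 48 h and 22.3 and 21.8 in siRAD21 OHT 48 h, with a 95% confidence interval of -0.13 to 0.13 for the log2 difference of the last from the first (SE 0.06, or 0.08 with the libraries averaged). LYAR reached 27.3 and 26.3 eRPKM, above siCtrl (0.36 ± 0.07) and below siCtrl OHT (-0.39 ± 0.07, adjusted p = 0.000506). RRP1B reached 46.3 and 46.9 eRPKM, above siCtrl (0.76 ± 0.03) and slightly below siCtrl OHT (-0.12 ± 0.03, adjusted p = 0.00959, or 0.0586 with the libraries averaged). RRP12 and WDR36 went furthest beyond siCtrl, at 1.43 ± 0.07 and 1.18 ± 0.07. At 24 h, of 36 genes that had fallen, 14 were higher than siCtrl with both treatments, 22 did not pass and 0 were lower. Of all genes tested, fallen or not, 17.4% were higher and 17% lower in this contrast at 24 h. Shares among only the genes that fell were not counted over the whole table at 24 h or 48 h. Nothing particular to the set is therefore read from these returns.

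To see how far the wider pathway moved, 80 other ribosome biogenesis factors, all present in the table, were followed. With OHT in siCtrl cells at 48 h their median log2 fold change was 0.38, with 72 of 80 higher at an adjusted p under 0.05 (26.1% of all genes) and 24 by more than 0.5 (7.78%), and 0 lower. In siRAD21 cells at 48 h the median was 0.48, with 70 higher (30.5% of all genes) and 36 by more than 0.5 (12.4%). With siRAD21 alone at 48 h the median was -0.14, with 40 lower and 8 higher at an adjusted p under 0.05, against 30.5% and 27.2% of all genes. The most abundant of them, RSL24D1, a 60S assembly factor, EIF6, which keeps the subunits apart, and NOL7, a nucleolar protein, had log2 fold changes of 0.40 ± 0.04, 0.27 ± 0.06 and 0.32 ± 0.06 with OHT in siCtrl cells at 48 h. CACGTG was present in the windows of 21 of the 63 other factors with a window (33.3%). The difference between this list and the 59 genes was not tested.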

How the data were processed

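The deposited table held eRPKM values (a form of RPKM: reads on exons, divided by exon length and library total) for 23399 genes in 18 libraries, 1 column per library. According to the study's methods and the submitters' processing notes, the authors trimmed or masked low-quality bases of 50-base reads, aligned them to hg19 with TopHat2 (version 2.0.8), removed PCR duplicates and counted reads with featureCounts (version 1.4.5). The library kit does not keep strand, so overlapping and antisense genes cannot be told apart. Shares of exon bases are of all exons annotated in GENCODE, which can differ from the exons counted (2510 against 1239 bases for IMP3). The shares given count only overlaps with genes of the expression table. Among these, larger shares than those named with the genes were found for EMG1 (55.5%, with LPCAT3) and PPAN (49.2%, with P2RY11 and PPAN-P2RY11), and TBL3 shared 30.0% with NOXO1. Annotated genes missing from the table overlap some members too. With them counted, NOP2 shared 2550 of 4687 exon bases, PWP2 3188 of 6839 and IMP3 1459 of 2510.

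From these RPKM values, read totals and exon lengths were recovered, which gave whole reads (within 0.01) for 21209 genes, 14963 of the 14993 tested. The depth was 9647501 to 12678599 reads a library. Changes were tested with limma 3.58.1 (R 4.3.3) on log2(eRPKM + 0.5), for 14993 genes with a mean of at least 1 eRPKM, as 15 contrasts of 8 group means fitted together, with a variance trend and Benjamini-Hochberg adjustment over all genes. A fold change is on this scale. The thresholds, an adjusted p of 0.05 and a log2 fold change of 0.5, follow the study, whose own count model (DESeq2) was not applied to these values. Figures, counts and promoter matches were made with Python 3.11.15. Chromosome positions of promoters are those of RefSeq in GRCh38.p14. Scripts were tested on simulated data.

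The study's methods speak of 2 biological replicates, while the labels give 3 samples in siCtrl 48 h and siCtrl OHT 48 h, and all were used. The p-values measure the spread between these samples, which may be technical. The siRAD21 OHT 48 h libraries were kept apart in the fit and counted as 1 sample in the text, and averaging them is an alternative. Replicate numbers come from the sample titles. The deviations of same-numbered libraries from their group means correlated at 0.258, 0.130 and 0.157 between siCtrl 48 h and siCtrl OHT 48 h, all over 0.1. In the other pairs of groups checked they correlated at -0.134 to 0.146. The titles do not say whether samples with the same number were paired, and these weak correlations do not settle it. The main fit held no pairing, and a fit with the number as a block is an alternative.

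The members, the lists of other factors and markers and the tests were chosen with earlier results of these data known. Values were given in full, in each role group, for the 2 genes with the highest mean eRPKM and those with the largest and smallest change with OHT in siCtrl cells at 48 h, and for genes past both thresholds with siRAD21 alone or in an interaction, which came to 27 genes. RAD21 and MYC, as checks of the labels, and the 3 most abundant other factors were also part of the rule. Other genes named with values were chosen after their values were seen. Alternatives covered the pseudocount, the filter on low values, centring and quantile normalization, the samples fitted, each library left out, the threshold on fold change and duplicate removal. The fit on recovered reads (limma's voom) and a crossed block were added after seeing the data. One of the marker genes is not reported here.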

Additional observations from a re-analysis of the deposited data

Results flagged for a closer look

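Effects that differed between the 2 times by a test of the difference itself, past an adjusted p of 0.05 in limma and a log2 difference of 0.5, were found in NOP14 and RRP12. The OHT effect in siCtrl cells was larger at 48 h than at 24 h by 0.60 in NOP14 (log2 scale, adjusted p = 0.00608) and by 0.60 in RRP12 (adjusted p = 0.00658), with all 3 OHT libraries above all 3 siCtrl libraries at 48 h in both genes. In the same genes the siCtrl libraries were lower at 48 h (9.27, 10.5 and 11.5 eRPKM for NOP14) than at 24 h (16.3 and 16.5), while the OHT libraries differed less (19.0, 19.7 and 18.9 at 48 h, 20.04 and 19.3 at 24 h). Leaving out 1 library gave 4 genes past both thresholds for this change without siCtrl 24 h replicate 2, and 5 without siCtrl 48 h replicate 2 or siCtrl OHT 48 h replicate 1, in place of 2. The siRAD21 effect without OHT rose from 24 h to 48 h by 0.79 in RRP12 (adjusted p = 0.000183), and 2 genes passed in place of 1 without siCtrl 48 h replicate 3 or siRAD21 24 h replicate 1. The depth and the assumed ceiling on eRPKM also differ between the times, and their part in these differences was not tested.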

How the results depend on the processing

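No gene changed direction with OHT in siCtrl cells at 48 h under any alternative. With siRAD21 alone at 48 h, 12 of the 59 genes changed sign under at least 1 alternative, all with an absolute log2 fold change of at most 0.10 and 0 of them past an adjusted p of 0.05. Without the threshold on fold change, the counts past an adjusted p of 0.05 were 41, 58 and 56 for OHT in siCtrl cells at 24 h and 48 h and in siRAD21 cells at 24 h, 37 and 38 for siRAD21 without OHT at 24 h and 48 h, 10 and 13 for siRAD21 with OHT, 12 for the interaction at 48 h, 24 and 9 for the changes from 24 h to 48 h of the OHT and siRAD21 effects, 25 and 54 for siRAD21 OHT against siCtrl at 24 h and 48 h, and 40 for time. Quantile normalization lowered the count for OHT in siRAD21 cells at 48 h from 45 to 29 and in siCtrl cells from 32 to 22, and raised that for the interaction at 48 h from 0 to 2. Among all genes tested, those past both thresholds upward went from 1853 to 1951 in siRAD21 cells and from 1166 to 1241 in siCtrl cells. For the interaction, all genes past both thresholds in either direction went from 1094 to 1270. The cause was not tested. With the siRAD21 OHT 48 h libraries averaged, which leaves this group 1 sample, the genes past an adjusted p of 0.05 for the interaction at 48 h went from 12 to 4 and for siRAD21 with OHT at 48 h from 13 to 8. The interaction count was 1 with a pseudocount of 0.1, with duplicate removal undone and on recovered reads. With duplicate removal undone, the counts for OHT in siCtrl cells at 24 h, for its change from 24 h to 48 h and for siRAD21 OHT against siCtrl at 24 h were 4 in place of 2. For the change of the siRAD21 effect from 24 h to 48 h the count was 2 in place of 1 with a pseudocount of 0.1, with the replicate block, with duplicate removal undone and on recovered reads. The replicate block changed no other count by over 1.5 times. Numbers of siCtrl 24 h and siCtrl OHT 24 h correlated at -0.134, and with the crossed pairing, added after seeing the data, the count for OHT in siCtrl cells at 24 h was 2 and that for the change of the siRAD21 effect 2.

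Leaving out 1 library in turn gave 1 to 3 genes for OHT in siCtrl cells at 24 h (1 without siCtrl 24 h replicate 2), 30 to 35 at 48 h, 9 to 13 and 42 to 45 in siRAD21 cells at 24 h and 48 h, 2 to 3 and 6 to 7 for siRAD21 without OHT, 0 to 1 and 2 for siRAD21 with OHT (1 without siRAD21 OHT 24 h replicate 1), 0 to 1 for the interaction at 48 h (1 without siCtrl 48 h replicate 1 or siCtrl OHT 48 h replicate 2), 2 to 4 and 22 to 26 for siRAD21 OHT against siCtrl at 24 h and 48 h (4 without siCtrl 24 h replicate 1) and 5 to 7 for time. For the change of the OHT effect with time it gave 2 to 5, with 4 without siCtrl 24 h replicate 2 and 5 without siCtrl 48 h replicate 2 or siCtrl OHT 48 h replicate 1. For the change of the siRAD21 effect, leaving out 1 library gave 1 to 2, with 2 without siCtrl 48 h replicate 3 or siRAD21 24 h replicate 1. Where a group of 2 lost a library, the one left was assumed to vary like the other groups. Precision was lowest for PPAN, the gene with the fewest reads, with an SE of 0.19 for OHT in siRAD21 cells at 48 h.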

Other observations

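Beyond the 59 genes, some of the 80 other ribosome biogenesis factors moved further than most, and those named here were chosen after their values were seen. With OHT in siCtrl cells at 48 h the largest log2 fold changes among them were those of the RNA helicases DHX33 (1.02 ± 0.08, SE) and DHX37 (1.00 ± 0.06) and of MDN1 (0.96 ± 0.09), the giant ATPase that remodels pre-60S particles. RRP36 and NVL had estimates of -0.03 ± 0.06 and -0.0019 ± 0.05 and did not pass. With siRAD21 alone at 48 h LAS1L, a factor of rRNA spacer removal, fell by 0.54 on the log2 scale and TSR2, a chaperone of a small subunit protein, fell by 0.52, while ESF1 rose by 0.54. In siRAD21 cells given OHT the estimates at 48 h were 0.68 ± 0.06 for LAS1L and 0.39 ± 0.07 for TSR2. Across the 59 genes the log2 fold change with OHT in siCtrl cells at 48 h had a Spearman correlation of -0.39 with mean eRPKM, and that in siRAD21 cells one of -0.18. Genes are not independent replicates, the mean level includes the libraries compared, and the part of the assumed ceiling on reads in these correlations was not tested.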
